A study of Mus musculus with 4 samples.

Results

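Island shelves are the stretches of genome that flank CpG islands at some distance, outside the shores that adjoin them. Here they were taken as the autosomal CCGG sites with 1 to 4 CCGG within 500 bp on either side, the site itself included, whose nearest dense site (10 or more CCGG within 500 bp) lay more than 2 kb and at most 10 kb away. By this rule 96697 of 1594137 CCGG sites were shelf sites, 6.37% of the autosomal ones. They flanked 9296 of 9354 autosomal dense clusters, with a median of 9 sites per cluster, where a dense cluster is a run of dense sites at most 1000 bp apart. The cells were MC1-ZE7, a mouse embryonic stem cell line (MC1, 129S6/SvEvTac, passage 31) that carries pZscan4c-Emerald, a fluorescent reporter driven by the Zscan4c promoter, and they were grown with leukemia inhibitory factor and without feeder cells. Emerald-high and Emerald-negative cells, both carrying the reporter, were separated by flow sorting. DNA of each fraction was cut with HpaII or with MspI and made into 1 HELP tag library per enzyme, so all values come from 4 libraries of 1 cell line. No difference has a replicate check, and the tags cannot be used to check cell identity, since they carry no expression.

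CpG islands are short stretches rich in CpG that often hold promoters and are mostly free of DNA methylation, while isolated CpGs elsewhere in the genome are mostly methylated. Methylation rises through the shore and the shelf from the island towards that surrounding level. HpaII cuts CCGG only where the inner CpG is unmethylated and MspI cuts it in either state, so a high HpaII/MspI ratio stands for low methylation. Zscan4 genes are known for their expression in the early embryo and in a small, changing part of embryonic stem cells.

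To name the islands behind the shelves, the order and spacing of CCGG in RefSeq promoters (GRCm38.p6) were matched to the site positions of the files, which are on mm9. Of 4373 promoter stretches of 300 bases with at least 4 CCGG, 4327 (98.9%) matched the spacing of exactly 1 place on their chromosome, and 0 neighbouring matches were out of order. This named 2547 autosomal dense clusters. Below are the 250 bases before the start of 4 genes whose shelves are described further on, a highly cut shelf (Foxf2), a called fall (Barhl2), a called rise (Shank3) and a rarely cut shelf (Ola1). They are shown because they lie within the dense clusters from whose ends the shelf distances were measured. Each runs 5′ to 3′ on the strand of the gene, is taken from the reference strain and not from the cells studied, and has CCGG, a palindrome that reads alike on both strands, in capitals. Of all promoters in the table, 52.8% hold at least 1 CCGG and 13.3% at least 4.
Foxf2: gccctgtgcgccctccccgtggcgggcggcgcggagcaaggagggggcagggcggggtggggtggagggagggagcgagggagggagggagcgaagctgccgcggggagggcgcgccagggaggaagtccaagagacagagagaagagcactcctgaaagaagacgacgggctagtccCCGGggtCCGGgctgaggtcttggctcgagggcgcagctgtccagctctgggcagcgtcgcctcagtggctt
Barhl2: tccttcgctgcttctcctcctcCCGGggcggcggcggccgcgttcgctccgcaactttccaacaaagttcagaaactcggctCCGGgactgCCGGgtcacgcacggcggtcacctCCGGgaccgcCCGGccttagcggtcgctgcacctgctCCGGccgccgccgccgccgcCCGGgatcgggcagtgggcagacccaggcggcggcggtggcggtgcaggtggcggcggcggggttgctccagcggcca
Shank3: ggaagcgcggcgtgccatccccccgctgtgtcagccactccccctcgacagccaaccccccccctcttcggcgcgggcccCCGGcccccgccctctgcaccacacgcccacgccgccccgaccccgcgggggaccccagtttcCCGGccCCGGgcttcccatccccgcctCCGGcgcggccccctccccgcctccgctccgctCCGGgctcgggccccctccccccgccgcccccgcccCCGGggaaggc
Ola1: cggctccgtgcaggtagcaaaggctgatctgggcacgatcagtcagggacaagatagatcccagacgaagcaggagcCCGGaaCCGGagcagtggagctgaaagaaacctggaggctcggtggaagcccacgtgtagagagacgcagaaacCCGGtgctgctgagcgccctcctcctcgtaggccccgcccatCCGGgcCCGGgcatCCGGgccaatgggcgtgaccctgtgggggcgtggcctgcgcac

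HpaII cut all 4 of these promoters often in both fractions. The 7 CCGG of the Barhl2 promoter stretch (mm9 chromosome 5, 106887261 to 106887411) held 71 HpaII and 31 MspI tags in Emerald-high against 177 and 25 in Emerald-negative cells. On the angle score, 100 × (2/π) × arctan(HpaII/MspI) of tags scaled to library totals, where 0 means no HpaII tag and 50 equal scaled tags, this stretch stood at 83.6 and 90.9. The Ola1 stretch (chromosome 2, 73052492 to 73052675) scored 88.8 and 93.2, Shank3 (chromosome 15, 89329870 to 89330055) 72.5 and 93.2, and Foxf2 (chromosome 13, 31717614 to 31717711) 69.6 and 80.2. These scores cover every CCGG of the 300 bases. The 250 bases shown hold 6 of 7 for Ola1, 6 of 7 for Shank3 and 2 of 4 for Foxf2. In Emerald-negative cells the Shank3 score rests on 7 MspI tags, below the minimum of 10 used for single sites further on. What follows concerns the sites 2 to 10 kb outside such clusters.

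Of the HpaII libraries, that of Emerald-high cells held 5662614 tags and that of Emerald-negative cells 9535691. The MspI libraries held 9372711 and 9307616. Shelf sites took 6.44% and 5.98% of the HpaII tags and 6.10% and 6.26% of the MspI tags. A tag in at least 1 library was seen at 78270 shelf sites, and 15161 (15.7%) reached 10 tags in both MspI libraries, the minimum for a site score. Between fractions, tag counts at shelf sites had a Spearman correlation of 0.86 in the MspI and 0.81 in the HpaII libraries, and the scores of covered sites 0.79. These describe sites of the same libraries, which are not independent replicates.

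Shelf sites were cut by HpaII less than shores and more than sites farther away, in both fractions. The pooled HpaII/MspI ratio of shelf sites was 1.06 in Emerald-high cells (95% Poisson interval 1.05 to 1.06) against 0.955 in Emerald-negative cells (0.951 to 0.958). Shores, meaning sites of 1 to 4 CCGG within 2 kb of a dense site, stood at 2.19 and 2.40, and such sites beyond 10 kb at 0.709 and 0.580. Shelf sites therefore lay between the shore and the open genome in either fraction, and the fraction with the higher ratio differed between shelf and shore. All intervals cover counting error only, and tags without molecular identifiers are not independent molecules.

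Within the shelf the ratio fell with distance from the dense cluster. At 2 to 3 kb it was 1.20 (1.19 to 1.21) in Emerald-high and 1.14 (1.13 to 1.15) in Emerald-negative cells. At 5 to 6 kb it was 1.05 and 0.934, and at 9 to 10 kb 0.936 (0.925 to 0.948) and 0.815 (0.806 to 0.824). The 4 values behind the first of these steps were 53658 and 73939 tags (HpaII and MspI, Emerald-high) and 88444 and 75930 tags (Emerald-negative), over 11795 sites. The 9 to 10 kb step held 38791 and 68590 tags in Emerald-high against 58643 and 70252 in Emerald-negative cells, over 11061 sites, so the MspI tags per site stayed close while the HpaII tags dropped. Between these steps the log2 ratio fell by a gap of 0.36 in Emerald-high (0.336 to 0.384) and 0.48 in Emerald-negative cells (0.460 to 0.502). The MspI libraries differed by -0.048 and -0.045 (log2, Emerald-high minus Emerald-negative) in the 2 to 3 kb and the 9 to 10 kb step.

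**Figure D1:**
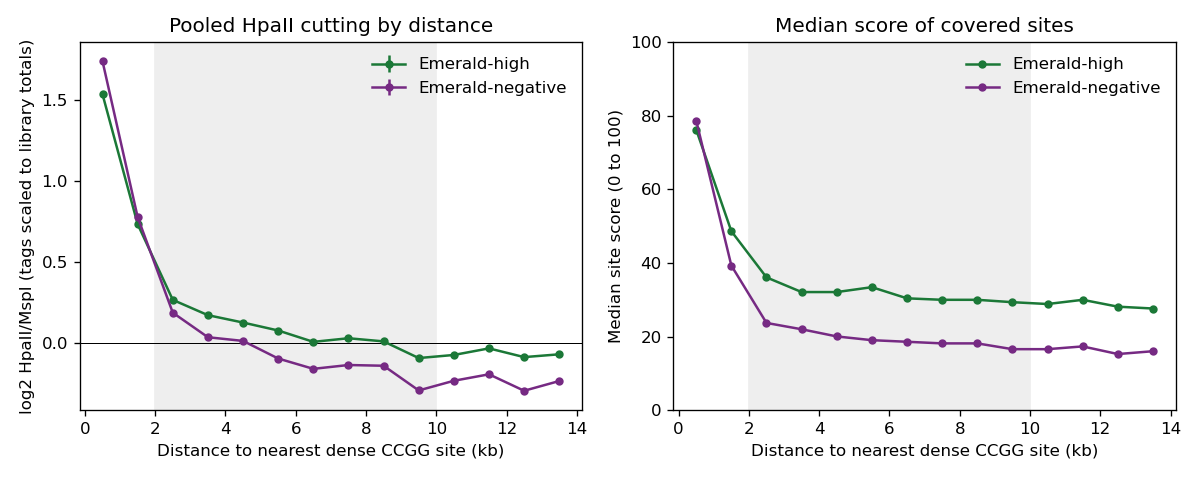
HpaII cutting of sites with 1 to 4 CCGG by distance from the nearest dense site in 1 kb steps, with the shelf shaded. The left panel gives the log2 HpaII/MspI ratio of pooled tags (bars, 95% Poisson intervals, mostly smaller than the points), the right panel the median site score, and Emerald-high lies above Emerald-negative in every shelf step.

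The ratio dropped across the inner edge of the shelf and did not drop across the outer edge. On the shore side of the inner limit, at 1 to 2 kb, the ratios were 1.66 and 1.71, against 1.20 and 1.14 on the shelf side. At 10 to 11 kb they were 0.949 and 0.849, above the last shelf step in both fractions. The order of neighbouring steps was not strict: 6 to 7 kb (1.00 and 0.894) lay below 7 to 8 kb (1.02 and 0.909).

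Cluster by cluster the fall was weak. In the 958 dense clusters with at least 20 MspI tags per MspI library both at 2 to 4 kb and at 8 to 10 kb, the nearer sites had the higher ratio in 56.1% (Clopper-Pearson 52.8 to 59.2) in Emerald-high and 54.3% (51.1 to 57.5) in Emerald-negative cells. The 2-3 against 9-10 kb gap was above 0 on 18 of 19 autosomes in each fraction, with means of 0.37 ± 0.20 (Emerald-high) and 0.49 ± 0.25 (Emerald-negative; SD over 19 autosomes of the same libraries). On chromosome 19 it was -0.04 and -0.17.

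Emerald-high cells had relatively more HpaII cutting in the shelf. The HpaII/MspI log2 difference, Emerald-high minus Emerald-negative, was 0.14 over all shelf sites (0.137 to 0.153), from 0.11 in the HpaII libraries and -0.039 in the MspI libraries. At shores it was -0.13 (-0.144 to -0.117) and beyond 10 kb 0.29 (0.286 to 0.291). On every one of 19 autosomes the shelf difference was above 0 (mean 0.16 ± 0.05, SD), above that of the shore and below that of sites beyond 10 kb. It ranged from 0.09 on chromosome 11 to 0.29 on chromosome 16. Scaling to totals makes these values relative to each library's average, and their sign depends on it. Scaled to the tags of dense sites instead, the difference was 0.87 in the shelf, 0.59 at shores and 0.68 at 1 to 2 kb, all above 0.

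The difference was smallest in the innermost shelf step and largest in the outermost, with no steady order between them. It was 0.08 (0.058 to 0.101) at 2 to 3 kb, 0.14 at 3 to 4 kb and 0.11 at 4 to 5 kb. From 5 to 8 kb the 3 steps stood at 0.17 each, the 8 to 9 kb step at 0.15 and the 9 to 10 kb step at 0.20 (0.176 to 0.224). The first and last steps differed by -0.12 (-0.153 to -0.089), in the HpaII libraries by -0.12 and in the MspI libraries by 0.00. The adjoining steps outside the shelf stood at -0.04 (1 to 2 kb) and 0.16 (10 to 11 kb), on either side of the shelf values. By autosome the gap averaged -0.12 ± 0.09 and was below 0 on 17 of 19, with 0.13 on chromosome 19 the highest.

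**Figure D2:**
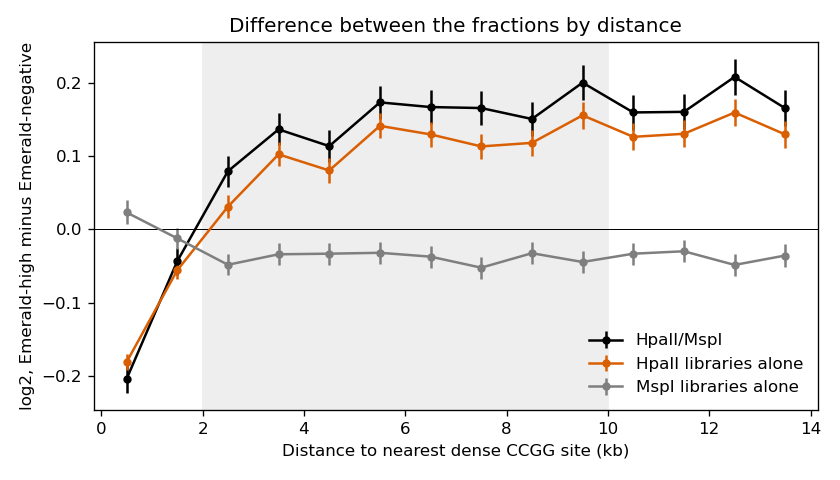
Log2 difference between Emerald-high and Emerald-negative cells at sites of 1 to 4 CCGG, by 1 kb step of distance from the nearest dense site, with the shelf shaded. Points are pooled tags with 95% Poisson intervals, and the HpaII/MspI difference, scaled to library totals, goes from -0.20 in the first kb to 0.08 at 2 to 3 kb and 0.20 at 9 to 10 kb, unevenly between, while the MspI libraries alone stay between -0.05 and 0.02.

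Scores of single sites gave the same order. The median score of covered shelf sites was 32.1 (quartiles 14.8 and 54.8) in Emerald-high cells, against 19.5 (6.19 and 46.7) in the Emerald-negative fraction. Sites rarely cut by HpaII, those scoring below 20, made up 32.9% (32.2 to 33.7) and 50.0% (49.2 to 50.8), and scores over 80 made up 5.82% and 6.73%. In Emerald-negative cells the share under 20 climbed from 43.9% at 2 to 3 kb to 54.3% at 9 to 10 kb, and in Emerald-high cells from 28.3% to 35.3%. No HpaII tag was seen at 7.13% and 11.2% of covered shelf sites, although the Emerald-high HpaII library was the shallower. Of covered shelf sites, 66.0% scored higher in the Emerald-high fraction and 30.7% lower. Beyond 10 kb these shares were 68.2% and 26.4%.

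The number of neighbouring CCGG sorted the shelf as well. The 38429 shelf sites with no CCGG neighbour within 500 bp had ratios of 0.971 (Emerald-high) and 0.727 (Emerald-negative), a log2 difference of 0.42 (0.404 to 0.432). With 2 CCGG in the window the ratios were 0.959 and 0.865, with 3 they were 1.16 and 1.21, and with 4 they were 1.42 and 1.62. The difference was thus 0.15 with 2 CCGG, -0.06 (-0.081 to -0.046) with 3 and -0.19 (-0.208 to -0.163) with 4. From 1 to 4 CCGG the HpaII libraries alone gave 0.27, 0.14, -0.02 and -0.11. The MspI libraries moved the opposite way, by -0.15, -0.01, 0.05 and 0.08, and most of the difference with 3 CCGG lay in them. Why the MspI libraries moved was not tested. Median scores of covered sites went up in Emerald-high cells in each class, from 18.1 to 32.1 with 1 CCGG and from 31.3 to 38.6 with 4. The median site and the pooled tags, in which highly cut sites weigh most, thus differ in direction with 3 or 4 CCGG. They also rest on different sites. The medians cover 3088 of 16536 sites with 3 CCGG and 1568 of 8643 with 4, the pooled tags all of them. Scaled to dense sites the pooled differences of these classes were 0.66 and 0.54. The 2-3 against 9-10 kb gap in the log2 ratio held in every class, at 0.32, 0.37, 0.33 and 0.40 in Emerald-high and 0.40, 0.46, 0.43 and 0.56 in Emerald-negative cells. Within each class the shelf difference also lay below that beyond 10 kb, by -0.09, -0.12, -0.10 and -0.05.

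Shelf and open genome were also compared among sites of like Emerald-negative baseline. Sites were classed by their Emerald-negative score in one of the deposited tag parts, against the MspI tags of both fractions (at least 10), and read in the remaining part. Of shelf sites so scored, 51.4% fell under 20 and 7.70% over 80, against 63.4% and 3.86% beyond 10 kb and 25.1% and 27.7% at shores. Shelf sites under 20 had a log2 difference of 0.80 (0.757 to 0.840) and those over 80 of -0.19 (-0.252 to -0.126). The sorting used the Emerald-negative HpaII library that the difference subtracts. Site effects shared by its parts can raise the first value and lower the second, and exchanging the parts does not remove them. The opposite signs are therefore not a result about the sites. Shelf minus beyond-10-kb then came to -0.06 (-0.104 to -0.019) under 20, -0.05 (-0.086 to -0.020) from 20 to 80 and 0.01 (-0.061 to 0.074) over 80. Under 20 the HpaII libraries alone gave -0.19 and the MspI libraries -0.12, so the MspI gap offset part of the HpaII gap there. With the parts exchanged the HpaII/MspI gaps were -0.10, -0.11 and -0.03. Under 20 the HpaII libraries alone then gave -0.10 and the MspI libraries 0.00. The pooled contrast was -0.14, and -0.16 in the HpaII libraries alone.

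The 5 to 6 kb step held 15352 shelf sites, against 11061 to 12796 in the others, and 5816 of them had no tag in any library. At exactly 4992, 5606 and 5853 bp from a dense site there were 1058, 1042 and 1007 sites, where the median over single distances was 11. Of these 3107 sites 3066 had no tag in any library. They belonged to 1111 dense clusters, 946 of which had a site at each of the 3 distances, and they occurred on all 19 autosomes and on either side of the cluster (534 of the 1058 at 4992 bp lay at higher coordinates). Outside 4 to 7 kb no single distance had more than 26 sites. What these sites are was not tested, since no annotation of the build was used.

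**Figure D3:**
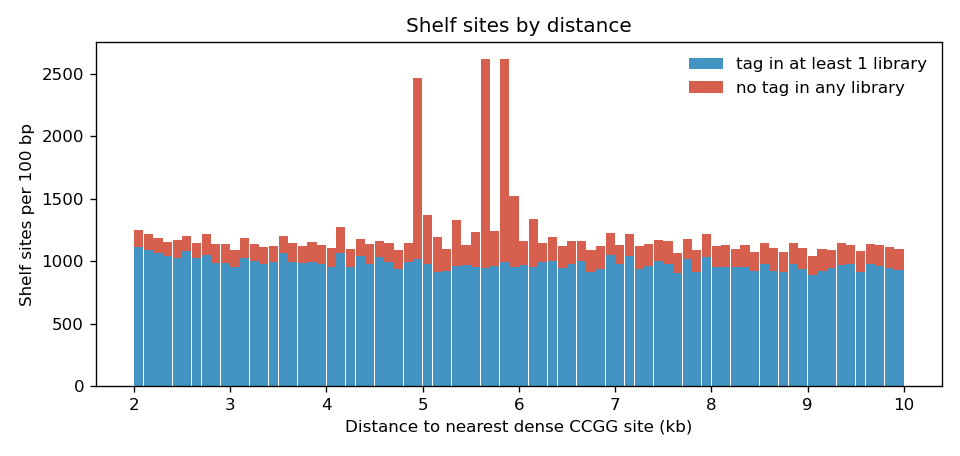
Number of shelf sites per 100 bp of distance from the nearest dense site, stacked by whether any of the 4 libraries holds a tag. Sites with a tag are spread evenly, and the 3 spikes between 4.9 and 5.9 kb rise above their surroundings through sites without tags, with 1013 tagged and 1450 untagged sites in the first of these bins.

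The dense neighbour itself was therefore checked. Of 9296 dense clusters with shelf sites, 6027 scored over 80 in Emerald-negative cells (at least 10 tags in each MspI library), 187 scored 20 to 80 and 81 under 20. A further 1480 had too few MspI tags, and 1521 had no tag in any library. For these last clusters the name island rests on CCGG spacing alone, since their methylation was not measured. Their 11509 shelf sites, of which 59.9% had no tag, were the least cut: the ratios were 0.679 in Emerald-high against 0.495 in Emerald-negative cells, and the log2 difference was 0.45 (0.415 to 0.494).

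Pooled shelf cutting differed between the classes of dense cluster, while cluster by cluster it did not track the ratio of the dense sites. Shelves of highly cut clusters (68247 sites) had ratios of 1.09 and 0.999 and a difference of 0.13 (0.121 to 0.139). Shelves of partly cut clusters (1946 sites) had 0.976 and 0.875, and those of rarely cut clusters (850 sites) 0.687 and 0.571 with a difference of 0.27 (0.178 to 0.353). Rarely minus highly cut was 0.14 (0.047 to 0.224) in the difference between fractions. That interval reached 0 with dense sites defined by 12 CCGG (-0.0035 to 0.233), without the most tagged sites (-0.012 to 0.183) and in the first part of the tags (-0.017 to 0.236). The decline with distance was seen at highly cut clusters, where the 2-3 against 9-10 kb gap in Emerald-negative cells was 0.49. At rarely cut clusters that gap was -0.06 and at partly cut ones -0.06, each from few sites. Shelves of clusters without tags went the other way, with no steady order between the steps. Their ratio was 0.405 at 2 to 3 kb and 0.536 at 9 to 10 kb in Emerald-negative cells. In Emerald-high cells it was 0.647 and 0.710. Across 5615 clusters, the ratio of the shelf and that of its own dense sites had a Spearman correlation of 0.02 (Emerald-high) and -0.02 (Emerald-negative), which describes clusters of the same libraries.

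**Figure D4:**
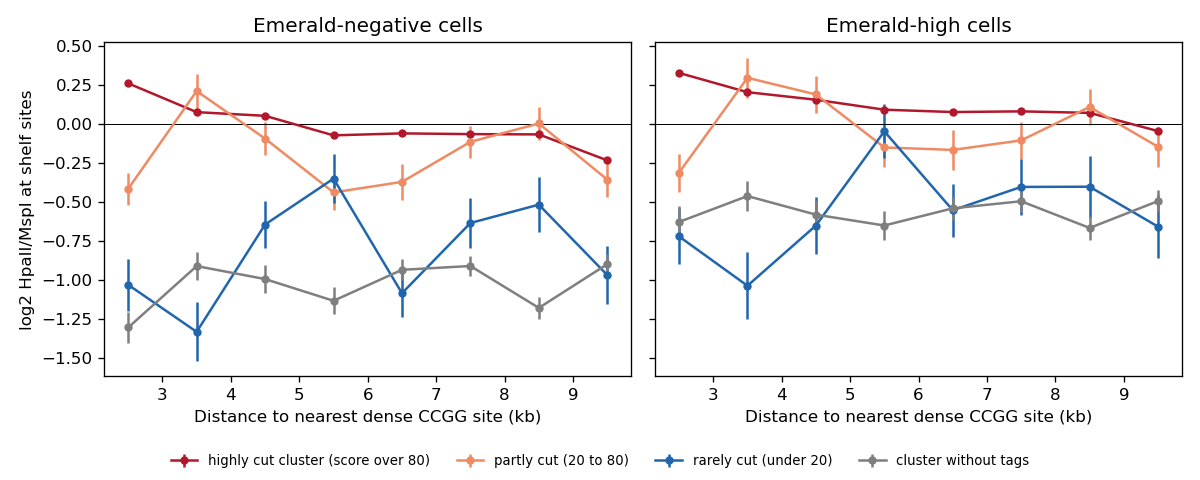
Log2 HpaII/MspI ratio at shelf sites by 1 kb step and by the Emerald-negative score of the nearest dense cluster, with 95% Poisson intervals, Emerald-negative cells on the left and Emerald-high cells on the right. Shelves of highly cut clusters go down in steps, from 0.26 at 2 to 3 kb to -0.23 at 9 to 10 kb in Emerald-negative cells and nearly flat from 5 to 9 kb. Those of clusters without tags stay below them at every distance and end above their own first step.

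Shelf sites with a dense cluster on each side were cut more than those with 1 such neighbour, while the side on which the cluster lay showed no detectable difference. Sites at lower and at higher coordinates than their cluster had differences of 0.14 and 0.15, which differed by 0.01 (-0.010 to 0.022). In 3210 clusters with enough tags on each side, the ratios of the sides had a Spearman correlation of 0.20 (Emerald-high) and 0.22 (Emerald-negative). The 2719 shelf sites with a dense site within 10 kb on both sides were cut more, at 1.51 and 1.53, than the 93978 with a dense site on 1 side, at 1.04 and 0.937. Their difference between fractions was -0.01 (-0.055 to 0.028) against 0.15 (0.144 to 0.160). By cluster size, with 1 to 5, 6 to 15 and 16 or more dense sites, the differences were 0.11, 0.16 and 0.15, and the last exceeded the first by 0.04 (0.021 to 0.068).

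Few single shelf sites could be called. Tags were compared by Fisher's exact test (two-sided), which sets libraries and not conditions against each other, at all 218697 covered sites of the genome. Sites were called where the p, adjusted by Benjamini-Hochberg, was below 0.05 and the change, with a pseudocount of 1 tag, at least 2-fold. It called 11 of 15161 shelf sites higher in Emerald-high cells, 0.0726% beside 0.102% of all covered sites. It called 0 shelf sites lower, beside 0.0297% of all. At an unadjusted p under 0.05, 1183 of the 15161 shelf sites were higher and 118 lower. Rises also outnumbered falls beyond 10 kb (15052 and 877 of 178274 sites) and at shores (163 and 78 of 3424). With counts divided by the overdispersion between the MspI libraries (1.39), 2 shelf sites were still called higher.

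3 called sites met the naming rule (whole tags, MspI libraries within 0.5 on the log2 scale). On chromosome 8 at 11719175, 8570 bp from the dense cluster of Arhgef7, which encodes an activator of Rac and Cdc42, HpaII gave 25 tags in Emerald-high against 3 in Emerald-negative cells, and MspI gave 38 and 39. On chromosome 8 at 109419879, 2247 bp from the cluster shared by Chtf8 and Utp4, HpaII gave 20 and 2 tags beside 25 and 24 with MspI. On chromosome 11 at 70251173, 4787 bp from a cluster with no matched promoter, HpaII gave 10 and 0 beside 19 and 25. In Emerald-negative cells the scores of these sites were 4.77, 5.17 and 0, and in Emerald-high cells 52.7, 58.8 and 45.6. Shelf sites of chromosome 8 held more MspI tags than those of any other autosome, at 8.53 and 8.70 per site against 5.91 and 6.03 over all shelf sites. More of them could therefore be tested, 28.5% against 15.7%. None of the 3 calls was kept under the overdispersion division or once the deeper HpaII library had been thinned to the depth of the other.

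Summed over a whole shelf, more differences were called. The test was run over 14909 cluster units (the dense sites, shore sites or shelf sites of a cluster) with at least 20 tags in each MspI library. Of 7168 shelves, 398 (5.55%) were called higher in Emerald-high cells, beside 2.86% of all units, and 16 (0.223%) lower, beside 6.79%. All units include these shelves, and no units beyond 10 kb were formed. Among single sites, 0.114% were called higher beyond 10 kb, against 0.0726% in the shelf. Shores gave 21 higher and 25 lower of 2471, and dense clusters themselves 8 higher and 971 lower of 5270. These counts depend on the scaling: with tags scaled to dense sites, 2794 shelves were called higher and 0 lower. Division by the overdispersion between the MspI libraries at this level (1.60) left 13 shelves higher and 0 lower. Over 5615 shelves whose dense cluster also had enough tags, the median log2 difference was 0.30 (quartiles -0.06 and 0.73), 71.3% lay above 0, and the ratios of the fractions had a Spearman correlation of 0.89.

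Among shelves named by a matched promoter, 127 of 2295 were called higher and 2 lower. Of all tested shelves 5.55% were called higher and 0.223% lower, so the named ones were called higher about as often. Those described here were picked after values were seen: the called shelves with most MspI tags, and the most and least cut with at least 100 MspI tags and MspI libraries within 0.5 (log2). The shelf of Shank3, a scaffold protein of the postsynaptic density, spans 18 sites on chromosome 15 from 89322011 to 89340279. It held 56 HpaII and 129 MspI tags in Emerald-high against 31 and 130 in Emerald-negative cells, ratios of 0.719 and 0.233. On the log2 scale the rise was 1.63 (SE 0.37, adjusted p = 0.000927 by the exact test of tags). A site 3718 bp out gave 7 and 11 tags (HpaII, MspI) in Emerald-high against 3 and 19 in Emerald-negative cells, and a site 2328 bp out gave 7 and 22 against 3 and 25. The site at 3004 bp on the lower side gave 10 and 3 against 13 and 7, so HpaII cut it in both fractions. It held the most HpaII tags of the shelf in either fraction.

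The shelf of Orai1, the pore subunit of store-operated calcium channels, lies on chromosome 5 from 123454832 to 123475553. Its 24 sites held 89 HpaII and 116 MspI tags in Emerald-high against 86 and 160 in Emerald-negative cells, and the MspI libraries differed by -0.47. Its ratios were 1.27 and 0.525. Orai1 and Shank3 were the 2 of 14 gene-named calls that passed with the overdispersion division. Fnbp4, a formin-binding protein, had ratios of 0.416 and 0.162 over 17 sites on chromosome 2 (90577136 to 90595943), from 43 and 27 HpaII tags. Cdc16, a subunit of the anaphase-promoting complex, had 0.545 and 0.198 over 13 sites on chromosome 8 (13747561 to 13767040), from 38 and 30 HpaII tags. Tk2, the mitochondrial thymidine kinase, was the least cut of the 12 in this set, with 0.293 and 0.115 from 23 and 18 HpaII tags. The others were Eif3d, a subunit of a translation initiation factor (0.471 and 0.218), Nup50, a nuclear pore protein (0.584 and 0.279), Dtnb, a dystrobrevin (1.22 and 0.590), Tanc1 (0.700 and 0.349), Frmpd1 (0.746 and 0.269), Gm9899 (0.511 and 0.236) and 9330162012Rik (0.792 and 0.315). All 12 dense clusters were highly cut in Emerald-negative cells, with scores of 87.6 to 92.7. Highly cut clusters also lay beside 5419 of 7168 tested shelves and 294 of 398 called higher.

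The 2 gene-named shelves called lower belonged to Barhl2, a homeobox transcription factor of the nervous system, and Ptch1, the receptor for Hedgehog ligands. The 11 shelf sites of Barhl2 (chromosome 5, 106879218 to 106892906) held 116 HpaII and 65 MspI tags in Emerald-high against 264 and 38 in Emerald-negative cells. The ratios were 2.95 and 6.78, and Emerald-high lay at -1.20 on the log2 scale (SE 0.34), with an adjusted p of 0.00717 by the exact test of tags. The MspI libraries differed by 0.76 there, beyond the limit used in naming, and the HpaII libraries by -0.43, so the larger share of the difference lay in MspI. For Ptch1 (chromosome 13, 63656862 to 63662120, 5 sites) the tags were 43 and 76 in Emerald-high against 90 and 36 in Emerald-negative cells, and the MspI libraries differed by 1.07. Most of the Ptch1 difference of -1.38 thus lay in MspI as well. In both fractions the Barhl2 shelf was cut far above the shelf average: a site 4486 bp out held 20 and 49 HpaII tags beside 8 and 4 MspI tags.

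The most cut shelves had ratios of 3.01 or more in both fractions, where all dense sites pooled stood at 3.36 and 5.54 (Emerald-high, Emerald-negative). Foxf2, a forkhead transcription factor, had 19 shelf sites on chromosome 13 from 31707737 to 31727725 with 194 HpaII and 99 MspI tags in Emerald-high against 347 and 88 in Emerald-negative cells, ratios of 3.24 and 3.85. At 9590 bp from its cluster, near the outer limit, a site still held 32 and 49 HpaII tags beside 13 and 5 with MspI. Six2, a homeobox transcription factor of kidney progenitors, stood at 3.01 and 3.99 over 19 sites on chromosome 17 (86078634 to 86098365). Mcl1, a survival protein of the BCL2 family, stood at 3.59 and 4.20 over 18 sites on chromosome 3 (95452592 to 95472116). Msantd2 (4.46 and 4.30), 1700096K18Rik (3.83 and 4.57, with too few MspI tags at its dense cluster for a class) and Fhl3, a LIM domain protein (3.25 and 5.02), completed the 6. Their log2 differences lay between -0.63 (Fhl3) and 0.05 (Msantd2), and none met the call rule.

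At the other end were shelves that HpaII hardly cut although their dense cluster was highly cut. Ola1, an Obg-like ATPase, had 7 shelf sites on chromosome 2 (73044189 to 73058588) with 3 HpaII and 45 MspI tags in Emerald-high against 4 and 60 in Emerald-negative cells, while its 20 dense sites scored 88.0 and 91.8. Tmem237, a protein of the ciliary transition zone, had 5 and 4 HpaII tags beside 67 and 87 MspI tags. Dcun1d4 had 5 and 2 beside 65 and 51, and Rgs6, a regulator of G protein signalling, 5 and 9 beside 62 and 59. The cluster shared by Usb1 and Zfp319 had the deepest of these shelves, with 17 and 15 HpaII tags beside 178 and 201 MspI tags. Gm30375 had 5 and 11 beside 73 and 81. None of the 6 met the call rule.

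**Figure D5:**
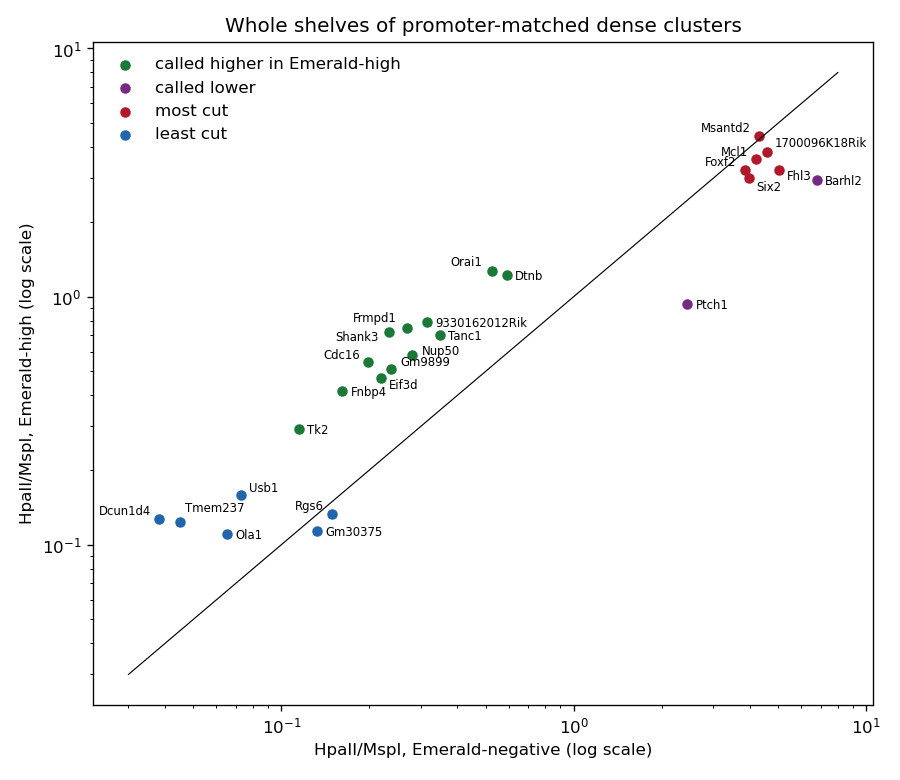
HpaII/MspI ratio of whole shelves in Emerald-negative (x axis) and Emerald-high cells (y axis), both on log scales, for 26 shelves named by a matched promoter, with the line of equal ratios. Shelves called higher lie above the line at Emerald-negative ratios of 0.115 to 0.590, and the most cut shelves lie close to it or below it.

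The shelves with the largest called change had very few HpaII tags in Emerald-negative cells. In 4 of the 8 named rises that library had none. One was the shelf of Suco on chromosome 1 (163803452 to 163810663), with 5 HpaII tags in Emerald-high against 0 in Emerald-negative cells, while MspI gave 20 and 24, at least 3.39-fold higher relative to MspI against a floor of 3 tags over the shelf. That bound leaves out the counting error of the 5 tags, and the exact lower limit of the scaled HpaII ratio was 1.54. On chromosome 8 from 45036905 to 45052913 there were 9 and 0 HpaII tags beside 34 and 40 with MspI, at least 5.99-fold by the same floor, with an exact lower limit of 3.32 for HpaII. A single site held 88.9% of these HpaII tags. On chromosome 10 from 75121508 to 75140003, next to a highly cut cluster, there were 14 and 2 beside 53 and 59, a scaled HpaII ratio of 11.8 (exact interval 2.71 to 107). Of these 8 clusters, 5 held no tag of their own. Over all shelves such clusters made up 584 of 7168 tested and 37 of 398 called higher. The 8 were picked by largest change, which favours shelves with almost no HpaII tags in Emerald-negative cells. The 4 named falls had no matched promoter. The largest, on chromosome 1 from 143077262 to 143096464, held 0 and 13 HpaII tags beside 29 and 25 MspI tags, and all 13 lay at 1 site. The fall with the most HpaII tags, on chromosome 4 from 133805470 to 133816644, held 75 and 212 beside 69 and 52 MspI tags. Its difference was -1.15 on the log2 scale (SE 0.33), with an adjusted p of 0.00966 by the exact test of tags. None of these 12 calls was kept under the overdispersion division.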

How the data were processed

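HELP tag libraries of 2 sorted fractions, each cut with HpaII and with MspI, were analysed (4 libraries). The deposited files give estimated counts of tags per CCGG site in 2 parts and their sum, not scaled to depth; the sum was used, and the totals stand per the file headers. Positions are on mm9, per the submitters' processing notes. Neither aligner nor treatment of multiply matching tags is stated (not given in the sources used here). Of shelf sites, 2.08% held fractions of a tag, which were kept in sums and rounded for exact tests. No mm9 sequence or annotation was used, so the sequence around the shelf sites is not shown.

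Density, distance and clusters were computed from the deposited positions. Tags were scaled to library totals. Intervals are 95% Poisson (log2 ratios) or Clopper-Pearson (shares), for counting error only. Named by rule were up to 8 shelves and 6 sites in each direction with the largest called change, MspI libraries within 0.5 (log2). Promoter matching, the gene-named shelves, the fixed distances and the baseline strata were chosen after the data were seen. The members and lists were chosen with earlier results of these data known. The exact test was tested on simulated data. Software was matplotlib 3.10.9, scipy 1.17.1, pandas 2.3.3 and numpy 2.4.6 under Python 3.11.15.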

Additional observations from a re-analysis of the deposited data

Results flagged for a closer look

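Between the fractions, shelf sites gained HpaII tags and lost MspI tags in relative terms, by 0.11 and -0.039 (log2, Emerald-high minus Emerald-negative). These opposite signs drew attention, and with 1 library per group the difference between the enzymes was not tested.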

How the results depend on the processing

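No paired analysis was possible because each group had 1 library. Of 97 recomputed comparison values and counts 59 stayed within the counting interval, or within 1.5 times for counts. None of the log2 or score differences among the 97 reversed its direction, while counts have no direction to reverse. Scaling to dense sites was applied there only to the shelf difference, the median score and the counts. Outside the 97, scaling to dense sites turned the difference from -0.13 to 0.59 at shores and from -0.04 to 0.68 at 1 to 2 kb. Shelf sites with 3 and 4 CCGG likewise went from -0.06 to 0.66 and from -0.19 to 0.54. The shelf difference of 0.14 became 0.26 at sites with 10 MspI tags in each MspI library, 0.12 and 0.17 in the first and second part of the tags, 0.11 in the HpaII libraries alone and 0.87 when scaled to dense sites. Without the shelves of clusters that hold no tag, an alternative added after seeing the data, it was 0.13. The difference in median score, 12.6, became 10.4 with at least 5 MspI tags and 6.72 when scaled to dense sites. The Emerald-negative 2-3 against 9-10 kb gap of 0.48 became 0.46 with dense sites defined by 12 CCGG, 0.44 when standardised to the CCGG mix of the shelf and 0.50 without chromosome 19 (added). Shelf minus beyond 10 kb, -0.14, became -0.16 at whole-tag sites, -0.15 after dropping the 0.1% of sites richest in MspI tags, -0.12 at sites with 10 MspI tags, -0.13 with 12 CCGG, -0.17 and -0.12 in the parts of the tags, -0.16 in HpaII alone, -0.098 when standardised, and, added after seeing the data, -0.15 without shelves of clusters without tags and -0.075 against sites of 10 to 50 kb only. Shelf minus shore, 0.28, became 0.31 at sites with 10 MspI tags, 0.25 and 0.30 in the parts, 0.23 in HpaII alone and 0.23 when standardised. The gap between shelves of rarely and highly cut clusters (0.14) stayed inside its interval, although 3 alternatives brought its lower limit below 0. Shelf sites called higher numbered 11, and 648 when scaled to dense sites, 2 with the overdispersion division, 3 with thinning, 6 at whole-tag sites, and 7 and 21 with at least 5 and 20 MspI tags. Whole shelves called higher went from 398 to 2794 when scaled to dense sites and to 13 with the overdispersion division. Those called lower went from 16 to 0 in both of these, to 49 without the fold limit and to 3 with at least 50 MspI tags. The number of calls therefore depends on the scaling and on the error model. With thinning, 7 of the 12 largest and 10 of the 14 gene-named shelf calls passed. Depth limits site scores to 15.7% of the shelf.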
